A study of Mus musculus with 6 samples.

Results

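Ccr7, S1pr1, Klf2, Cxcr4 and Cd69, 5 genes that direct where T cells go, were examined in CD4+ cells polarized toward regulatory T cells (Tregs). They were taken by gene symbol from the 2387 genes of the deposited table, and all 5 were found. The set was chosen by the genotype means of this same comparison, so these means are given as a description and no test was run on them. RNA-seq was performed on 3 libraries of SRC2fl/fl/Foxp3YFP-Cre mice, labelled KO, and 3 libraries of Foxp3YFP-Cre mice, labelled WT. For 36 hours, naive CD4+ T cells of both genotypes were cultured with TGFβ and with antibodies that block IL-4 and IFNγ. Per the study's methods, its Treg differentiation medium also held antibodies to CD3 and CD28, which stimulate T cells. Each library came from a different mouse. Mice of both genotypes carried the Foxp3YFP-Cre allele on a C57BL/6J background, and the KO mice carried in addition floxed alleles of Ncoa2, the gene of the coactivator SRC2. In these mice Cre is made where Foxp3 is expressed, so Ncoa2 is deleted in a cell after Foxp3 comes on. Per the study's methods, mice outside its autoimmune encephalomyelitis model were 6 to 10 weeks old unless stated otherwise, and littermates were matched for age and sex between groups. For a single library neither age nor sex is stated, and the methods name no sort of Treg cells before RNA extraction.

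A T cell enters a lymph node when chemokine receptors read chemokines on the vessel wall and within the node, and it leaves along a gradient of the lipid sphingosine-1-phosphate (S1P). Ccr7 encodes the receptor for CCL19 and CCL21 that brings naive T cells in, and S1pr1 encodes the S1P receptor that lets them out. Klf2 is a transcription factor of resting T cells that drives S1pr1, Cxcr4 encodes the receptor for CXCL12, and Cd69 encodes an early activation antigen that binds the S1PR1 protein and removes it from the cell surface. Activated T cells silence Klf2 and S1pr1 for a time while Cd69 is induced, which holds them in the node.

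The values are counts per 1000000 reads (CPM), given as the authors' mean over the 3 libraries of each genotype. The table used here carries no value per library, so no SD, no depth and no overlap between mice could be given. All 2387 genes had an authors' P value below 0.05 in this comparison, so a gene was listed only if it had passed that threshold, and the 5 genes are no exception. The deleted gene was checked first. Ncoa2 had 127 CPM in KO cells and 164 CPM in WT cells, so the KO mean was 77.7% of the WT mean. These CPM count the gene as a whole and do not separate deleted from intact transcripts. A larger difference in fold was seen for 65.9% of the genes lower in KO cells. The paper places Ncoa2 among its most down-regulated genes and reports a strong loss of its mRNA by qPCR. Genes outside the table were not analysed here and were counted neither as changed nor as unchanged.

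All 5 genes had lower means in KO cells than in WT cells, from 1.42-fold lower for Cd69 to 3.24-fold lower for Cxcr4. Over the whole table, 735 of 2387 genes, or 30.8%, were lower in KO cells. All 5 were past a 1.4-fold difference, the size the study used for its volcano plot, against 14.1% of the table, and Cxcr4, Klf2 and S1pr1 were past 2-fold, against 3.14% of the table. These counts were fixed by the choice of the genes and are read as nothing more. The median log2 fold change was -1.09 for the 5 genes and 0.33 for the table, since most listed genes were higher in KO cells. In bulk RNA, fewer cells that express a gene and less of its RNA per cell cannot be told apart.

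**Figure D1:**
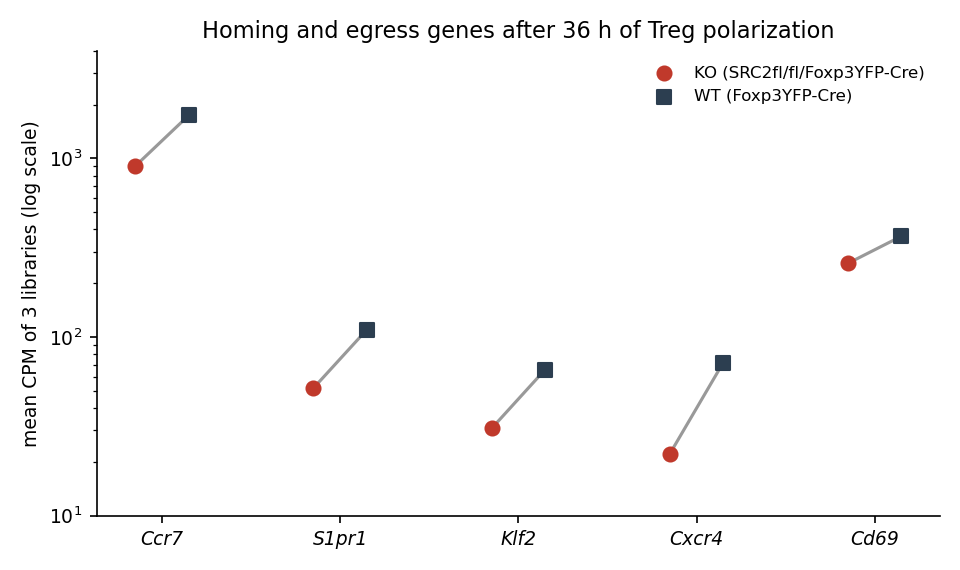
Mean CPM (vertical axis, log scale) of the 5 genes in KO cells (red circles) and WT cells (dark squares), with a gray line joining the means of a gene. Each point is the authors' mean of 3 libraries with no error bar, because values per library were not analysed, and every red circle lies below its square, by the most for Cxcr4 with 22.2 against 71.9 CPM.

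Ccr7 is a minus-strand gene of chromosome 11 (GRCm38, 99144196 to 99155077). It averaged 905 CPM in KO cells and 1741 CPM in WT cells. The log2 fold change was -0.94, and 52.0% of the WT level remained. With CPM divided by the length of all annotated exons in kilobases, so that genes can be compared, Ccr7 had 458 CPM per kb in KO cells and 880.4 CPM per kb in WT cells. Of the 2346 genes of the table with an annotated length, 7 had a higher value per kb than Ccr7 in KO cells and 3 in WT cells. The difference of 423 CPM per kb between WT and KO cells was larger than that of any other lower gene with a length. In CPM the mean was lower by 836 in KO cells, which is 5.59% of the summed difference of all 735 lower genes, and the 5 genes together made up 7.27%.

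S1pr1 and Klf2 were lower by nearly the same factor. S1pr1, on the minus strand of chromosome 3 from 115710433 to 115715072, had 51.8 CPM in KO cells and 110.1 CPM in WT cells, a log2 fold change of -1.09. Klf2, on the plus strand of chromosome 8 from 72319033 to 72321656, had 30.8 CPM in KO cells and 65.7 CPM in WT cells, also a log2 fold change of -1.09. The share of the WT level that remained was 47.0% for S1pr1 and 46.9% for Klf2. Per length they were alike as well. S1pr1 had 17.0 CPM per kb in KO cells and 36.1 CPM per kb in WT cells. For Klf2 these values were 16.7 CPM per kb in KO cells and 35.6 CPM per kb in WT cells. The gene with the log2 fold change nearest to that of S1pr1 was Klf2, among 816 genes whose average CPM was within 2-fold of its own, and S1pr1 was in turn the nearest to Klf2 among 1037 such genes. This match depends on the limit on level. Over the whole table, Dleu2 with -1.09 was nearer to S1pr1, and Gm10752 with -1.09 was nearer to Klf2. The log2 fold changes of S1pr1 and Klf2 differed by 0.0046, and whether this closeness holds from mouse to mouse could not be examined.

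Cxcr4 had the largest difference in fold of the 5 genes. It lies on the minus strand of chromosome 1 from 128588199 to 128592293 and had 22.2 CPM in KO cells and 71.9 CPM in WT cells. The log2 fold change was -1.70, so that 30.8% of the WT level remained. Of the 735 lower genes, 9 had a larger difference in fold, or 1.22%. This share was 7.62% for Klf2, 8.03% for S1pr1 and 12.7% for Ccr7. It was smaller where genes of low level counted less. Among genes with at least 50 CPM in either genotype it was 0.637% for Cxcr4, 2.87% for Klf2, 3.18% for S1pr1 and 5.73% for Ccr7, and with 5 CPM added to both means it was 0.408% for Cxcr4, 2.18% for Klf2, 1.90% for S1pr1 and 2.72% for Ccr7.

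Cd69 stood nearest to no difference. It lies on the minus strand of chromosome 6 from 129267325 to 129275436, with a mean of 258 CPM in KO cells and 367 CPM in WT cells. The log2 fold change was -0.50, and 70.5% of the WT level remained. A larger difference in fold was seen for 43.5% of the 735 lower genes, against 22.3% of the lower genes with at least 50 CPM in either genotype and 19.5% with 5 CPM added to both means. The ratio of Cd69 to S1pr1 RNA, taken per kb of all exons, was 2.34 in KO cells and 1.56 in WT cells. Taken per kb of the longest coding transcript it was 9.01 in KO cells and 6.01 in WT cells, so its size depends on the length used. The protein of either gene was not measured here.

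By level per kb, the order was Ccr7, Cd69, S1pr1, Klf2 and Cxcr4 in KO cells, and Ccr7, Cd69, Cxcr4, S1pr1 and Klf2 in WT cells. Cxcr4 ranked behind S1pr1 and Klf2 in KO cells and ahead of them in WT cells, with 12.3 CPM per kb in KO cells and 39.8 CPM per kb in WT cells. Cd69 had 39.7 CPM per kb in KO cells and 56.3 CPM per kb in WT cells over the 6.51 kb of all its exons. Over the 1.69 kb of its longest coding transcript it had 153 CPM per kb in KO cells and 217 CPM per kb in WT cells, and its place in either order was the same. Without values per library, no adjacent genes in these orders can be said to differ beyond their spread. None of the 5 genes overlaps another annotated gene on either strand, as annotated in GENCODE M21.

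**Figure D2:**
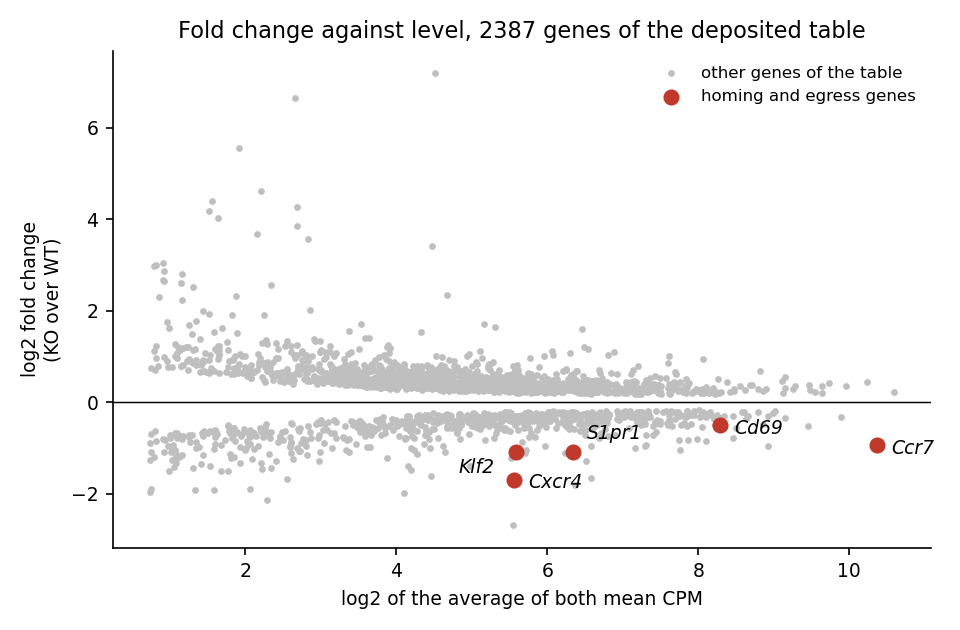
Log2 fold change (vertical axis, KO cells over WT cells) against the log2 of the average of both mean CPM (horizontal axis) for the 2387 genes of the deposited table, each a point, with the 5 homing and egress genes in red. The band around 0 is empty because the table lists only genes below an authors' P value of 0.05, and Ccr7 lies at the far right, below all other genes of a like level, with a log2 fold change of -0.94.

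The promoters of Klf2 and Cxcr4 are shown because proteins of the KLF family, to which Klf2 belongs, bind GC boxes and CACCC boxes in DNA, and these letters can be sought in genes lower together with Klf2. RefSeq promoters on GRCm38.p6 were matched for 2 of the 5 genes, Klf2 and Cxcr4, and the 250 bases before the annotated start are given 5′ to 3′ on the strand of the gene. Capitals mark GC boxes (CCGCCC or its reverse complement GGGCGG) and CACCC boxes (CACCC or its reverse complement GGGTG), which do not overlap each other here. The Klf2 window is chr8:72318812-72319061 on the plus strand, whose end runs past the GENCODE start of the gene, and the Cxcr4 window is chr1:128592300-128592549 on the minus strand.
Klf2: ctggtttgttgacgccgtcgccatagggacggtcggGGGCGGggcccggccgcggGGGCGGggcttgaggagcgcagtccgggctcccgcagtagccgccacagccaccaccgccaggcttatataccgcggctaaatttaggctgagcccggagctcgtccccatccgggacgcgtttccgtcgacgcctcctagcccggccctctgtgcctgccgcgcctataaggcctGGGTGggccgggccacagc
Cxcr4: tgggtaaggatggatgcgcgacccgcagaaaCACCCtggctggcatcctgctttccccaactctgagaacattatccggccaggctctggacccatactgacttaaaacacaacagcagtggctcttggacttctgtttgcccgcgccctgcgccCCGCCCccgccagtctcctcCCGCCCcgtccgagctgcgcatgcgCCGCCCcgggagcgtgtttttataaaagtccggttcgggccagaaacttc

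The Klf2 window held 2 GC boxes and 1 CACCC box, and the Cxcr4 window held 3 GC boxes and 1 CACCC box. The CACCC box of the Klf2 window lies in the part past the GENCODE start of the gene. Of all 32851 RefSeq promoter windows of this length, 32.7% held a GC box and 52.0% a CACCC box, so neither motif is rare. The forkhead letters GTAAACA or TGTTTAC, which factors such as Foxo1 bind, were found in neither window and in 3.17% of all windows. G and C made up 71.2% of the Klf2 window and 61.2% of the Cxcr4 window, against a median of 52.4% over all windows. These matches describe the letters alone, and binding was not measured.

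The remaining chemokine receptors of the table had higher means in KO cells. Of a list of 23 chemokine receptors, 5 were in the table, namely Ccr7 and Cxcr4, which were lower, and 3 others, which were higher. Ccr4, a receptor of skin-homing and Th2 cells that also marks many Tregs, had 103 CPM in KO cells and 63.8 CPM in WT cells, a log2 fold change of 0.69. Cxcr6, the CXCL16 receptor of effector and tissue-resident T cells, had 3.33 CPM in KO cells and 1.76 CPM in WT cells, a log2 fold change of 0.92. Cx3cr1, the fractalkine receptor of effector T cells and monocytes, had 3.74 CPM in KO cells and 1.98 CPM in WT cells, likewise 0.92. The median log2 fold change of the 5 receptors was 0.69, against 0.33 for the table.

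S1pr1 was the only gene of its list in the table with a lower CPM in KO cells, S1pr4 joining it where log2 fold changes were centred on the median of the table. Of 14 genes of S1P receptors and S1P metabolism, 4 were in the table, 1 lower and 3 higher (2 lower once centred), with a median log2 fold change of 0.50 beside 0.33 for the table. S1pr4, a receptor found mainly on lymphocytes, had 26.4 CPM in KO cells and 21.1 CPM in WT cells, a log2 fold change of 0.32, and so lay at about the median of the table. S1pr2, a receptor that restrains migration, had 4.63 CPM in KO cells and 2.89 CPM in WT cells, a log2 fold change of 0.68. Sphk1, a kinase that makes S1P, had 3.90 CPM in KO cells and 1.91 CPM in WT cells, a log2 fold change of 1.03. Apart from S1pr4, the higher genes of this list had means under 5 CPM in both genotypes.

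Few adhesion genes were in the table. Of 24 genes of integrins and other adhesion molecules, 4 were listed, 1 lower and 3 higher (2 lower and 2 higher once centred), where 69.2% of the whole table was higher, with a median log2 fold change of 0.46 against 0.33 for the table. The lower gene was Itga6, the α6 integrin chain, with 39.7 CPM in KO cells and 47.4 CPM in WT cells, a log2 fold change of -0.26. Gcnt1, an enzyme that builds the glycans selectins bind, had the largest log2 fold change of this list, 1.63, at 2.99 CPM in KO cells and 0.964 CPM in WT cells. Itgae, which encodes CD103, the αE integrin that holds T cells in epithelia, had one of 0.72, and Icam1, a ligand of the integrin LFA-1, one of 0.21.

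Genes that act behind these receptors went both ways. Of 42 genes of chemotactic signaling, 7 were in the table, 3 lower and 4 higher (4 lower once centred), with a median of 0.27 against 0.33. Rgs1, which dampens chemokine receptor signals in lymphocytes, had 169 CPM in KO cells and 299 CPM in WT cells, a log2 fold change of -0.82. Rgs2, a regulator of the same family, had one of -1.14 and Rgs16, another, one of 0.74. Gna13, the G protein subunit through which S1PR2 acts, had one of 0.42.

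A list of Klf and Foxo factors and of genes linked with them in resting T cells was also looked up. It was chosen with earlier results of these data known, so its counts are a description only. Of its 20 genes, 11 were in the table, and 10 of these were lower (11 once centred), where 30.8% of the whole table was lower before centring. The median was -0.58 against 0.33 for the table. Ccr7, S1pr1 and Klf2 are on this list themselves. Of the 8 others in the table, 7 were lower, with a median of -0.51. Klf6, a factor also found in activated cells, had 195 CPM in KO cells and 353 CPM in WT cells, a log2 fold change of -0.86. Klf4, a quiescence factor related to Klf2, had 6.58 CPM in KO cells and 14.1 CPM in WT cells, a log2 fold change of -1.10, and Klf13, one of -0.25. Foxo1, which drives Klf2 and Ccr7 in naive T cells, had one of -0.58. This is RNA, and by flow cytometry the paper saw no obvious fall of Foxo1 protein without SRC2. Whether Foxo1 has a part in the lower Klf2 and Ccr7 was not tested. The Foxo1 paralog Foxo3 was the exception with 0.26, which lies below the median of the table. Il7r, another Foxo1 target, had -0.55, Il6ra, the IL-6 receptor chain, -0.46, and Lef1, a factor of naive T cells, -0.30.

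Cd69 is induced by T cell receptor signals, and other genes so induced were compared. Of 20 early activation markers, 12 were in the table, 4 lower and 8 higher (5 lower once centred), with a median of 0.79 against 0.33 for the table. Cd69 was among the 4 lower ones, together with Icos at -0.63, Irf4 at -0.51 and Ctla4 at -0.50, whereas Egr1 had a log2 fold change of 1.64, Il2 one of 1.61, Pdcd1, which encodes PD-1, one of 1.16 and Egr3 one of 1.03. The early response genes Egr1 and Egr3 and the growth factor gene Il2 were thus on the other side of 0 from Cd69.

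**Figure D3:**
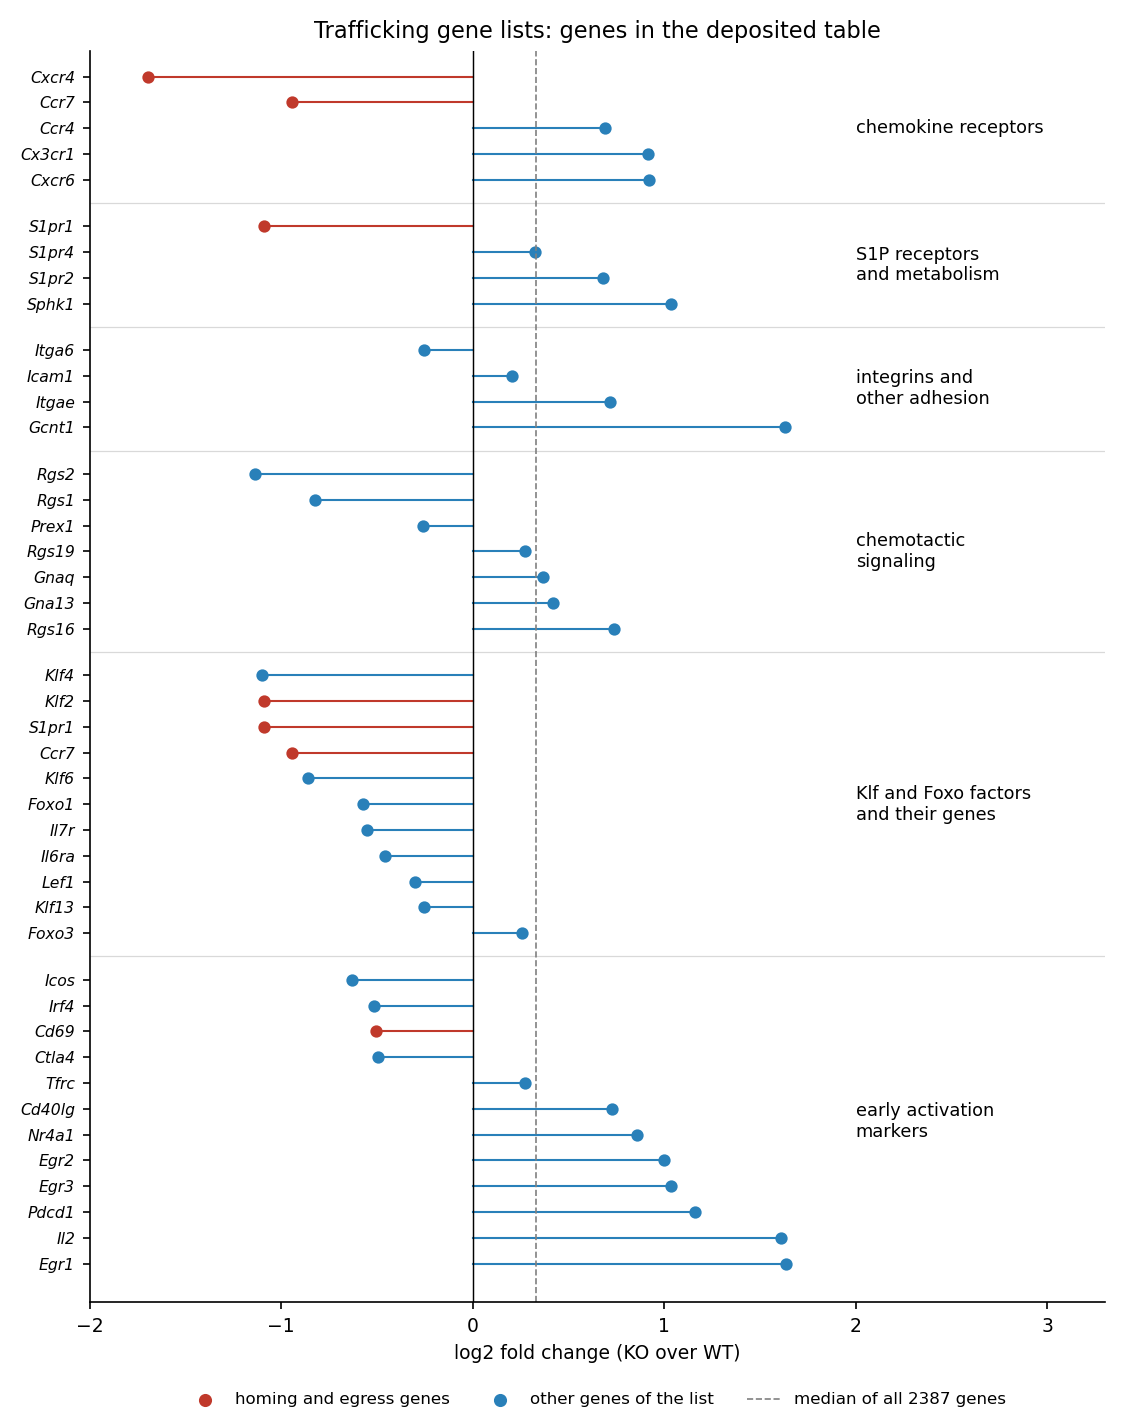
Log2 fold change (horizontal axis, KO cells over WT cells) of each gene of 6 lists that was in the deposited table, one row a gene, with the homing and egress genes in red and the others in blue. The dashed line marks the median of all genes at 0.33. The other chemokine receptors and S1P genes lie right of 0, with S1pr4 at the dashed line, and 10 of the 11 Klf and Foxo list genes lie left of 0.

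Genes with a fold and a level most like those of the 5 genes were sought in the table, 2 for each. Trib2 was next to Klf2 in likeness to S1pr1, with 50.6 CPM in KO cells and 109 CPM in WT cells. For Klf2 the second gene was Gm47761 with a log2 fold change of -1.09. For Cxcr4 the nearest were Tent5a with -1.81 and Irs2, an insulin receptor substrate, with -1.39, and of the 291 lower genes among 1043 of a like level, 2 had a lower log2 fold change than Cxcr4. For Cd69 the nearest were Asxl1, a chromatin regulator, with -0.51 and Cd28, the T cell costimulatory receptor, also with -0.51. For Ccr7 only 11 genes had a like level, and none of these had as low a log2 fold change. Its nearest were Irf4 with -0.51 and Btg1, an antiproliferative gene, with -0.33.

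Markers of the cells in the culture moved with the genotype too. Foxp3 had 42.4 CPM in KO cells and 82.5 CPM in WT cells, with 51.4% remaining. Of 11 Treg markers, 5 were in the table, all lower, where 30.8% of the whole table was lower. Their summed means were 399.8 CPM in KO cells and 642 CPM in WT cells, and among them was Ikzf4 with a log2 fold change of -0.93. Of 20 myeloid and dendritic cell markers, 8 were in the table, all higher, where 69.2% of the whole table was higher. Their summed means were 205 CPM in KO cells and 73.8 CPM in WT cells. Of these sums, Cd74 made up 75.3 CPM in KO cells and 55.9 CPM in WT cells. The largest log2 fold changes were those of Lyz2 with 7.19, H2-Ab1 with 5.55, H2-Aa with 4.63 and Ccl22 with 3.42. Their WT means were low, at 0.310, 0.157, 0.360 and 3.78 CPM in that order. Their KO means were 45.4, 7.39, 8.91 and 40.5 CPM. Whether these rest on a single library could not be examined. Ccr7 is also expressed by mature dendritic cells, and the part of its RNA that came from such cells was not measured. Of 13 T cell markers, Cd28 alone was in the table, and of 12 B cell markers and 8 CD8 T and NK cell markers none was. That a marker is not in the table does not place it at 0, so the T cell identity of the samples could not be checked by its defining markers. The part of these other cells, or of a smaller share of Tregs, in the lower Ccr7, S1pr1, Klf2, Cxcr4 and Cd69 was not tested.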

How the data were processed

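RNA-seq of CD4+ cells after 36 hours of Treg polarization was deposited as 1 table of 2387 genes. Per the study's methods, the authors aligned the reads to GRCm38, took gene quantities from the E/M algorithm of Partek Flow, scaled these to CPM with an offset of 0.001 and ran the GSA algorithm between genotypes. No aligner or annotation is named in the sources used here. The values used are the authors' mean CPM of the 3 libraries of each genotype. A deposited column of totals was 3 times the 2 means added together for all 2387 genes (relative tolerance 1e-06), so it is no raw count and gives no depth. The authors' own ratio, fold change, P value and adjusted p were not used, except that the range of the deposited P value showed that the table holds genes below 0.05. CPM values can move together when a few abundant genes differ.

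Log2 fold changes are the log2 of the mean CPM of KO (SRC2fl/fl/Foxp3YFP-Cre) over that of WT (Foxp3YFP-Cre) cells. Exon lengths and positions came from GENCODE M21 (GRCm38), in which 2346 of the 2387 symbols had a length. No test was run, because no value per library was analysed. The 5 genes and the gene lists were chosen with earlier results of these data known, and 1 list gene is not reported here. Named genes are these 5, every chemokine receptor, S1P, Klf and Foxo list gene in the table, up to 4 genes of each other list by size of the log2 fold change, 2 nearest genes for each of the 5 (average CPM within 2-fold), and Ncoa2 and Foxp3. Outside this rule, Cd74 is named for its part of the myeloid and dendritic sums. Dleu2 and Gm10752 are named as nearer genes without the limit on level. Alternatives were other offsets, scalings, folds, level filters and, added after seeing the data, another gene length for the levels and for the ratio of Cd69 to S1pr1. Log2 and rank steps were run on simulated means without noise, which checks the arithmetic alone. Python 3.11.15, numpy 2.4.6 and pandas 2.3.3 were used.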

Additional observations from a re-analysis of the deposited data

How the results depend on the processing

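Each of the 5 genes was lower in KO cells under every offset and scaling tried, and no value changed sign. This outcome was fixed in advance, since an equal offset keeps the order of the means. Both scalings lowered every log2 fold change, so neither could bring a negative one past 0. The table's median log2 fold change is 0.33. Relative to it the log2 fold change was -1.27 for Ccr7, -1.42 for S1pr1, -1.42 for Klf2, -2.03 for Cxcr4 and -0.83 for Cd69. Because the table lists only genes below an authors' P value of 0.05, this median is not that of all expressed genes. All 5 genes passed a 1.4-fold difference, against 14.1% of the table, and 3 passed 2-fold, against 3.14%. These counts were fixed by the choice of the genes. The share of lower genes with a larger difference in fold depended on which low genes were kept, and the cause was not tested. With genes of at least 5 CPM in either genotype it was 5.34% for S1pr1, 5.04% for Klf2 and 0.763% for Cxcr4. With at least 50 CPM it was 5.73% for Ccr7, 3.18% for S1pr1, 2.87% for Klf2, 0.637% for Cxcr4 and 22.3% for Cd69. With 5 CPM added to both means it was 2.72% for Ccr7, 1.90% for S1pr1, 2.18% for Klf2, 0.408% for Cxcr4 and 19.5% for Cd69. Over its longest coding transcript Cd69 had 153 CPM per kb in KO cells and 217 CPM per kb in WT cells, and its ratio to S1pr1 was 9.01 in KO cells and 6.01 in WT cells. Of 18 list counts under an alternative, 2 moved by over 1.5 times: once centred on the median of the table, 2 S1P genes and 2 adhesion genes were lower, against 1 of each before.

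No paired analysis was possible because only genotype means were analysed, and these carry no replicate number, and leaving out a library was not possible for the same reason. Depth per library is unknown, so the precision of each mean could not be given.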
